A study of Mus musculus with 6 samples.

Results

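The integrin genes of T cells examined here were 9 of the 21951 protein-coding genes of the annotation: 4 genes for alpha subunits (Itgae, Itgal, Itga4 and Itgav) and 5 for beta subunits (Itgb1, Itgb2, Itgb3, Itgb7 and Itgb8). They were chosen by name as subunits of the integrins that T cells use. For each gene, every accessible region that overlapped the gene body or the 20 kb on either side was taken, which gave 140 of the 236017 regions of the series. A region is a stretch formed by joining overlapping or touching peaks of all lists, and a library called a region when it had a peak there.

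ATAC-seq, in which the transposase Tn5 inserts adapters into accessible DNA, was carried out on naive CD4+ CD62L+ T cells from the spleen of wild-type C57BL/6 mice that had been activated with anti-CD3 and anti-CD28 and differentiated in culture. Th2 cells received IL-4, IL-2 and anti-IFNγ. Th9 cells received the same agents and TGF-β1. Th17 cells received IL-6, TGF-β1, IL-23 and IL-1β with antibodies to IFNγ, IL-4 and IL-2. TGF-β1 was thus present in the Th9 and Th17 cultures, IL-4 and IL-2 in the Th9 and Th2 cultures, and anti-IFNγ in all 3. There were 2 libraries per subset, replicates 1 and 3 of the labels, and each came with a peak list of its own. No source says whether the replicates came from separate animals or cultures, so a p-value here measures the spread between these libraries only.

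An integrin is a receptor of 1 alpha and 1 beta subunit that binds a ligand on another cell or in the matrix once signals from inside the cell have switched it to an open shape. In T cells, LFA-1 (Itgal with Itgb2) binds ICAM-1 during arrest on vessels and in the contact with antigen-presenting cells, VLA-4 (Itga4 with Itgb1) binds VCAM-1, and Itga4 with Itgb7 binds MAdCAM-1 and guides cells to the gut. Itgae with Itgb7 binds E-cadherin and holds T cells within epithelia, and Itgav with Itgb8 releases active TGF-β from its latent form.

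The lists held between 100317 and 142213 peaks. Their lowest fold enrichment over the genome background ran from 1.71 to 2.11, and the highest of these limits belonged to Th9 replicate 1, so a weak region could be listed elsewhere and be missing from that library. Strength is therefore given as a percentile, the share of a library's own peaks with a fold enrichment at or below that of the peak. The promoters of Cd3e, Cd3d and Lck, genes of T cell signalling, were called in all 6 libraries and that of Cd4 in 4. The promoters of the B cell genes Cd79a, Ms4a1 and Pax5 were called in no library, and of the 5 myeloid promoters Csf1r, Lyz2 and Itgam were called in none, Cd14 in both Th2 libraries and Th17 replicate 3, and Itgax in both Th2 libraries. Il9 had promoter peaks at percentiles of 88.6 and 90.7 for Th9 and, lower, of 37.1 and 44.4 for Th2, and Il17f and Il23r had them for Th17 only, while Il17a was called in both Th17 libraries (81.4 and 69.5) and in Th2 replicate 3 (36.1). Of the Th2 markers, Il13 was called for Th2 only, Il4 for Th9 (89.5 and 92.3) as well as Th2 (87.8 and 88.3), and Il5 and Gata3 in all 6 libraries. In bulk lists, fewer cells with an open site and less cutting per cell cannot be told apart.

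Most of the integrin regions were shared or irregular, and few belonged to 1 subset. Among the 140 regions, 44 (31.4%) had a call in each of the 6 libraries, against 21.4% of all regions of the genome, and 33 (23.6%) in a single library, against 37.2%. Both Th9 libraries and no other called 2 regions (1.43%, against 1.31% of the genome). The corresponding count was 5 for Th2 (3.57%, against 2.87%) and 5 for Th17 (3.57%, against 1.7%). Regions of a pair of subsets numbered 7 for Th9 and Th2 (5%, against 2%), 4 for Th2 and Th17 (2.86%, against 1.55%) and 1 for Th9 and Th17 (0.714%, against 0.296%). The share of Th9-only regions was near that of the genome, the Th17-only and paired shares were higher than it on counts of 1 to 7, and no test was made of these shares. For a single region, a call in 2 of 6 libraries can arise in 15 ways, so the smallest one-sided exact p is 0.0667 and no region could be tested by its calls. Of the 44 regions common to all libraries, 8 lay at the promoter of a neighbouring gene (Haspin, P2rx5, Zfp768, Fam171b, Fam207a, Pttg1ip, Zfp740 and Rarg).

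**Figure D1:**
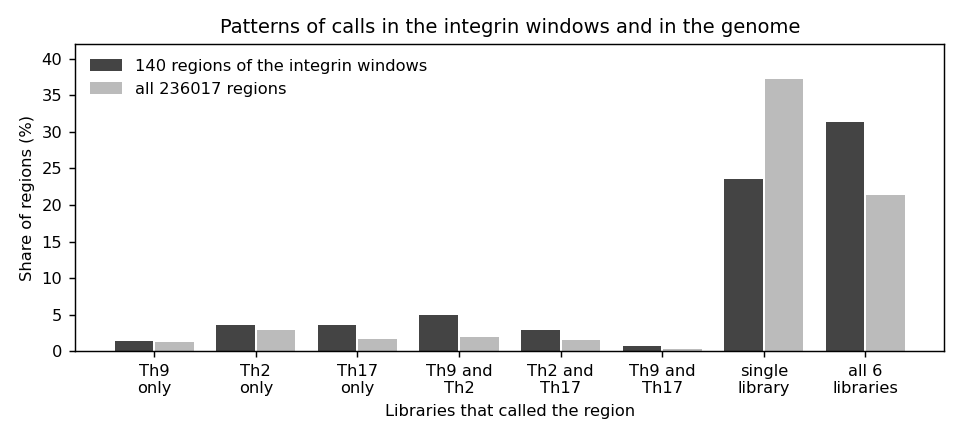
Share of regions (percent, vertical axis) with each pattern of calls (horizontal axis) among the 140 regions of the integrin windows (dark bars) and all 236017 regions (light bars). The dark bar stands above the light one for regions of all 6 libraries (31.4% against 21.4%) and below it for regions of a single library (23.6% against 37.2%).

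At the promoter (1000 bp before to 100 bp after any annotated start), 8 of the 9 genes were called in all 6 libraries, and Itgae was the exception. Among all protein-coding genes 58.7% had a promoter peak in every library. Itgb1, the beta subunit of the VLA integrins, had the strongest promoter, at percentiles of 94.6 and 93.7 for Th9, 95.7 and 97.9 for Th2 and 95.3 and 97.6 for Th17. Itgb7, the gut-homing beta subunit, had the weakest of the 8, at 59.5 and 67.8 for Th9, 67.9 and 73.9 for Th2 and 65.4 and 71.2 for Th17. Itgb7 was below Itgb1 in every library, and the 2 ranges did not overlap. Itga4 (90.4 to 96.4), Itgav (91.3 to 96.1) and Itgb8 (83 to 96.2) lay near Itgb1, and their ranges overlapped with it and with each other. Itgb3 (74.6 to 91.3), Itgal (77.4 to 85.4) and Itgb2 (67.5 to 85) lay between, and each range overlapped with that of the next gene down to Itgb7. None of the 8 promoters passed the test for a difference among subsets (limma F, adjusted p between 0.208 for Itgb3 and 0.874 for Itgb7). Itgb3 had the lowest p, and its percentiles of 91.3 and 88.3 for Th9, 85.1 and 85.3 for Th2 and 84.9 and 74.6 for Th17 did not overlap between subsets, with Th9 highest. The Th9 libraries were also highest at Itgb2, at 85 and 81.2, against 67.5 and 78.1 for Th2 and 70.2 and 68 for Th17, which overlapped with each other (adjusted p 0.307, from a region that joins a second peak at 72.8 in Th17 replicate 1). With only peaks of a fold of at least 4, 4 promoters (Itga4, Itgav, Itgb1 and Itgb8) stayed called in all libraries and Itgb7 was called in none.

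**Figure D2:**
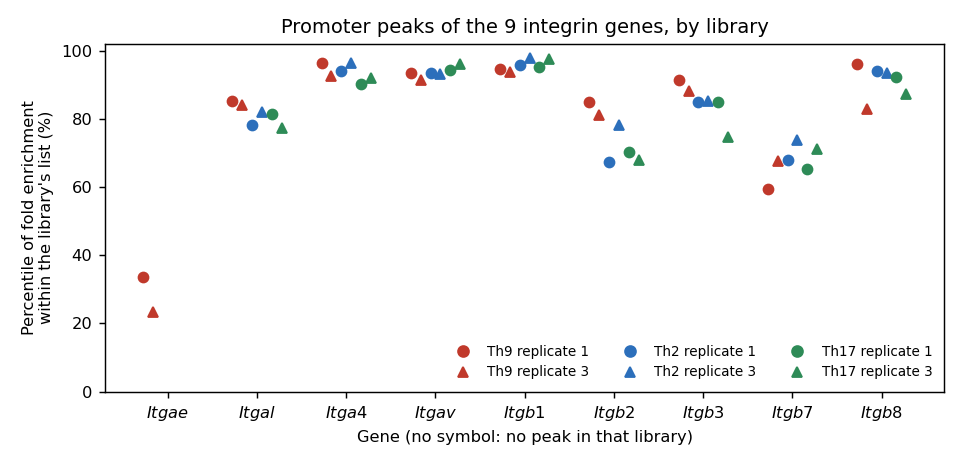
Percentile of the strongest promoter peak (vertical axis) for each of the 9 integrin genes (horizontal axis), 1 symbol per library, coloured by subset and shaped by replicate. Itgae has symbols in the Th9 libraries only, at 33.6 and 23.5, while the Itgb1 symbols lie between 93.7 and 97.9 and those of Itgb7 between 59.5 and 73.9.

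The strongest and the weakest of the promoters called in every library also differed in base composition. RefSeq promoter sequences (GRCm38.p6) were at hand for 5 of the 9 genes. The 250 bases before the start are shown for Itgb1 and Itgb7, on the strand of the gene, with each CG dinucleotide in capitals. Itgb1 (chr8:128685404-128685653, plus strand) held 21 CG dinucleotides and 68% G and C. Itgb7 (chr15:102231936-102232185, minus strand) held 5 and 56%. The median of 32851 promoters was 6 CG dinucleotides and 52.4% G and C.
Itgb1: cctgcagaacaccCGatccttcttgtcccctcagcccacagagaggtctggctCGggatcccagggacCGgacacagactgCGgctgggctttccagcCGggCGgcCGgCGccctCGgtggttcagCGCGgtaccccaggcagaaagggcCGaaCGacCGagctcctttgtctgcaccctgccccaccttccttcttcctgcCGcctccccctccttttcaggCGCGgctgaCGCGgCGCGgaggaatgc
Itgb7: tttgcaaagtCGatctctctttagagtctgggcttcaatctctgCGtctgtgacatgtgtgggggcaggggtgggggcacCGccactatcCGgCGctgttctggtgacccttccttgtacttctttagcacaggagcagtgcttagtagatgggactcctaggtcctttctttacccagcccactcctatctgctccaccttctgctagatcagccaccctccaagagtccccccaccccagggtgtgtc
The number of CG dinucleotides was 6 for Itga4, 18 for Itgav and 12 for Itgb8, so Itga4, with a promoter peak close to that of Itgb1 in strength, had almost as few as Itgb7. The Itgb8 sequence (chr12:119238277-119238526, minus strand) lay inside the gene body, whose 5′ end at 119238802 was the start used for the promoter calls. Its RefSeq start thus differed from that start. A GC box (GGGCGG on either strand), present in 32.7% of all promoters of that length, was found in the sequences of Itga4 and Itgb1 but not in those of Itgav, Itgb7 and Itgb8.

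Regions called in both libraries of 1 or 2 subsets, and in no other library, numbered 24 in 8 of the 9 genes, and Itgb7 had none. They are described by gene below. A region of this kind was chosen by its calls, so the values in the libraries that called it are a description and carry no test. Among the 24, 13 lay in introns, 2 overlapped an exon, 4 lay upstream and 5 downstream of the gene. They were narrower and weaker than the shared regions, and part of this is built into the classes. A shared region joins peaks of more lists and had to pass the limit of every list. Their median width was 538 bp (242 to 1806), against 1650 bp (548 to 5294) for the 44 shared regions, and the median of their percentiles was 49.8, against 80.5.

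**Figure D3:**
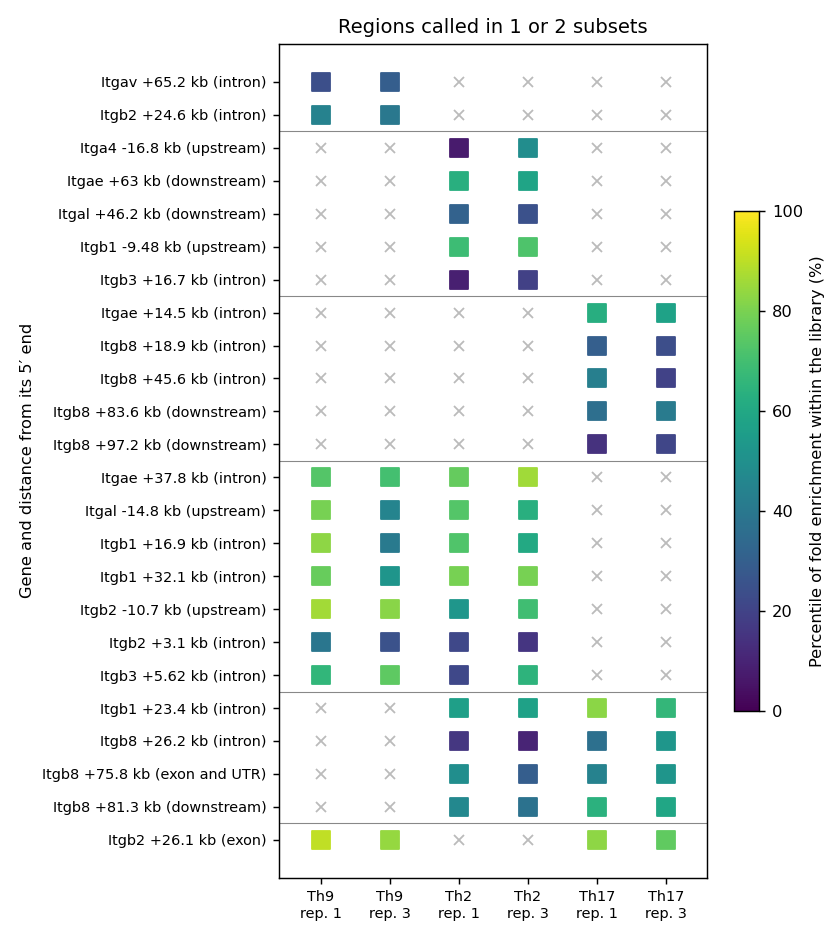
The 24 regions called in both libraries of 1 or 2 subsets only, named by gene and distance from its 5′ end (vertical axis), in the 6 libraries (horizontal axis). Squares are coloured by percentile and crosses mark libraries with no call. The region of Itgb2 in the Th9 and Th17 libraries is the brightest row, with percentiles from 75.6 to 90.4.

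Itgae (chr11:73090583-73147446, plus strand) encodes CD103, the alpha subunit that binds E-cadherin and that TGF-β is known to induce in T cells. Its 12 regions held 5 shared ones, 1 of Th17 only, 1 of Th2 only and 1 of Th9 and Th2. The promoter was called in the Th9 libraries alone, and weakly. Th9 replicate 1 had a peak of 224 bp at a fold of 2.34 (percentile 33.6) that ended 4 bp before the start, and Th9 replicate 3 a peak of 216 bp at a fold of 2.02 (percentile 23.5) that began 22 bp after it. The 2 peaks were 25 bases apart and did not overlap, so they formed 2 regions of a single library each. The fold of Th9 replicate 3 lay below the lowest fold that Th9 replicate 1 listed but above the limits of the Th2 and Th17 lists. At a fold of at least 2.2, an alternative added after the data had been seen, 1 of the 2 remained, and at a fold of at least 4 none did.

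The strongest subset-specific element of Itgae lay in intron 20, 37.8 kb into the gene (chr11:73128367-73128905). It was called at percentiles of 73.3 and 70.2 for Th9 and 76.4 and 85.9 for Th2, with folds from 3.07 to 5.09, and in neither Th17 library. These folds were all above the lowest fold of every list. In intron 2, a region of 388 bp (chr11:73105049-73105436), 14.5 kb into the gene, was called only in Th17, at 62.7 and 57.6. It kept this pattern with a −log10 q cutoff of 5. The third region, 6.12 kb past the end of the gene (chr11:73153569-73153886), was called only in Th2, at 62.9 and 58.3. Next to the Th17 element of intron 2 lay a region of all 6 libraries (chr11:73107500-73110374), 16.9 kb into the gene. Its percentiles were 72 and 77.8 for Th17, 46.7 and 63.9 for Th9 and 12.1 and 41.6 for Th2. The Th17 libraries were highest and the Th2 libraries lowest with no overlap, but the difference did not pass the test (adjusted p 0.111, unadjusted p 0.0152). The middle 200 bases of the stretch covered by every calling library are shown for both subset elements, in genome plus strand, with matches to the words searched in capitals.
Itgae intron 20, Th9 and Th2 (chr11:73128551-73128750): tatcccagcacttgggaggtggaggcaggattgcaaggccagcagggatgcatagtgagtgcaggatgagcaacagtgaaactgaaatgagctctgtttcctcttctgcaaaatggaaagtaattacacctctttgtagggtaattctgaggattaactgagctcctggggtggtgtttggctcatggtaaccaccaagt
Itgae intron 2, Th17 (chr11:73105166-73105365): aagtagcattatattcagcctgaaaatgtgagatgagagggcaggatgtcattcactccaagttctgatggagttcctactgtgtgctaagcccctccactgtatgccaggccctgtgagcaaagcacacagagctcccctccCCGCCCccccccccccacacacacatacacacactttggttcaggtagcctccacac
Words of known factor families were searched on either strand. For AP-1, made of Fos and Jun proteins, the word was TGANTCA. For GATA factors, which include the Th2 regulator Gata3, it was AGATAA. STAT factors, which cytokine receptors switch on, were represented by TTCNNNGAA and the RUNX family by TGTGGT. The word for ETS factors was GGAAGT and that for SMAD proteins, which act below TGF-β, was AGCCAGACA. The GC box and the TATA box, TATAAA, were searched as well. The first element held none of them and the second held a GC box, which 6.57% of all regions hold in a window of this length.

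**Figure D4:**
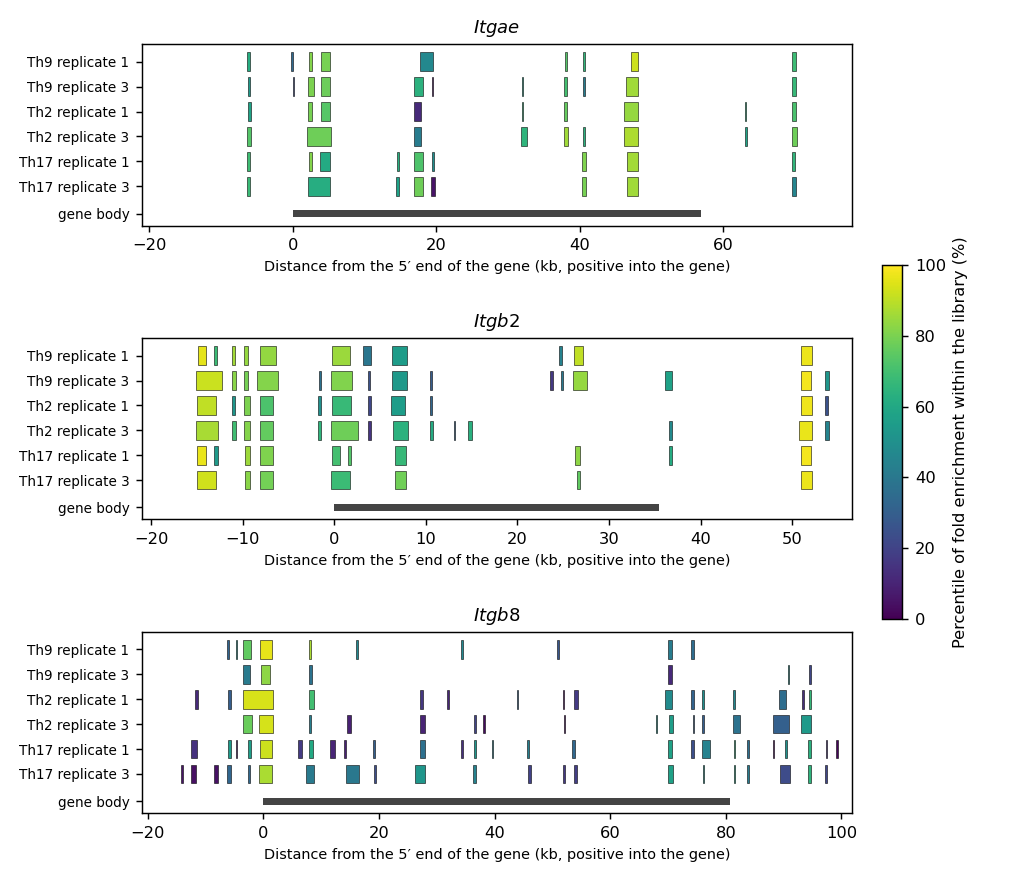
Peaks of each library (rows) along Itgae, Itgb2 and Itgb8, by distance from the 5′ end of the gene in kb (horizontal axis, positive into the gene), coloured by percentile, with the gene body as a grey bar. In Itgae the peak at 37.8 kb is missing from the Th17 rows, in Itgb2 the peak at 26.1 kb is missing from the Th2 rows, and Itgb8 has 26 and 21 peaks in the Th17 rows against 10 and 6 in the Th9 rows.

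Itgb2 (chr10:77530252-77565708, plus strand) encodes CD18, the common beta subunit of the leukocyte integrins, LFA-1 among them. It had 17 regions, 6 of them shared. The 1 region of the 140 that the Th9 and Th17 libraries called without Th2 lay here, 26.1 kb into the gene, and overlapped exon 10 (chr10:77556337-77557874). Its percentiles were 90.4 and 84.1 for Th9 and 83.2 and 75.6 for Th17, and neither Th2 library had a peak. The folds were 5.61 and 4.58 for Th9 and 3.82 and 3.08 for Th17, all well above the lowest folds of the Th2 lists, which were 1.81 and 1.73. The peaks were 970 and 1538 bp wide in Th9 and 453 and 390 bp in Th17. The pattern held with a −log10 q cutoff of 5, at a fold of at least 2.2 and with lists of equal length, and at a fold of at least 4 only the Th9 calls were left. TGF-β1 was in the Th9 and Th17 cultures and not in the Th2 cultures, and the part of any agent in this pattern was not tested. The middle 200 bases common to the 4 peaks lay beside the exon, held 0 coding bases, 0 repeat-masked bases and none of the words.
Itgb2, Th9 and Th17 (chr10:77556773-77556972): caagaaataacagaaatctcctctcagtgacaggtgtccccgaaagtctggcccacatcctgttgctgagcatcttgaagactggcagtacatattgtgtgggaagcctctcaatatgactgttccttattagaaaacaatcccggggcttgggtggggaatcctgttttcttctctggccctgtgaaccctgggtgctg

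The other subset regions of Itgb2 were called in both Th9 libraries, and 2 of them in both Th2 libraries as well. Regions with a call in only 1 library of a subset are left out here. A region 10.7 kb upstream (chr10:77519064-77519527) was called at 86.2 and 82.4 for Th9 and at 52.6 and 69.4 for Th2, and not in Th17. The Th9 values were above the Th2 values, and at a fold of at least 4 the region was left in Th9 only. A weak region of intron 1, 3.1 kb into the gene, was called at 39.1 and 25 for Th9 and 21.5 and 15.4 for Th2. Th9 alone called a region of intron 8 (chr10:77554834-77555216), 24.6 kb into the gene and close to the exon 10 element, at 44.2 and 40.1. Its middle 200 bases held a GATA, a RUNX and an ETS word, each once, which 7.45%, 16.6% and 13.2% of all regions hold. Thus the Th9 libraries had peaks in all 4 subset regions of Itgb2, while Th2 shared 2 of them and Th17 1. These regions were chosen by their calls, and some of those left out went the other way. Both Th2 libraries and Th9 replicate 3, but not Th9 replicate 1, called the regions 1.43 kb upstream, 10.4 kb into the gene and 18.1 kb past its end.

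Itgal (chr7:127296260-127335138, plus strand), the alpha subunit of LFA-1, had 9 regions, of which 5 were shared. Of its shared regions, 4 lay between 10.7 kb upstream and the promoter, at percentiles from 59.7 to 90.6 over the 6 libraries, and the other lay downstream at the promoter of Zfp768, at 79.5 to 92.9. A region 14.8 kb upstream (chr7:127280184-127281497) was called at 79.5 and 45.2 for Th9 and 73.4 and 63 for Th2, and not in Th17. A region 7.32 kb past the end of the gene was called only in Th2, at 30.9 and 24.7. Its folds of 2.02 and 1.96 were below the lowest fold of Th9 replicate 1. Folds of separate lists are not on a common scale, so the part of this limit in the missing call was not tested. Both LFA-1 genes thus had an upstream region called in Th9 and Th2 and absent from the Th17 lists. This pattern was not particular to them, since Itgae, Itgb1 and Itgb3 had intron regions with the same calls. With a −log10 q cutoff of 5, each of the upstream regions was left with 3 calls and lost the pattern.

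Itga4 (chr2:79255426-79333123, plus strand), the alpha subunit of VLA-4 and of the gut-homing integrin, had 15 regions, 5 of them shared. Only 1 region followed a subset, a peak 16.8 kb upstream in Th2 at 7.25 and 48.6, which was lost in 1 library when the lists were set to equal length. A stronger contrast lay 15.9 kb past the gene end, within the neighbouring gene Cerkl (chr2:79349071-79349665). This region was missing from Th17 replicate 3 and was called at 89.6 and 91.5 for Th2, 27.5 and 8.83 for Th9 and 40.6 in Th17 replicate 1. The Th2 libraries were far above the others. It was named after its values had been seen, since it was called in 5 libraries and fell outside the classes above.

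Itgb1 (chr8:128685654-128733200, plus strand), which pairs with Itga4 and with many other alpha subunits, had 12 regions and only 3 shared ones, at the promoter, 4.25 kb upstream and in intron 1. Its subset regions were of several kinds. Th2 alone called a region 9.48 kb upstream (chr8:128675796-128676176) at 68.5 and 71.9, and this call held with a −log10 q cutoff of 5. Th9 and Th2 called a region of intron 1 (chr8:128702602-128703975) at 83.1 and 40.8 for Th9 and 72.4 and 60.4 for Th2. They also called a region of intron 9 (chr8:128717789-128719260) at 76.7 and 52 for Th9 and 79.6 and 79.3 for Th2. Th2 and Th17, without Th9, called a region of intron 3 (chr8:128709063-128709725) at 56 and 57.3 for Th2 and 82.7 and 66.3 for Th17. Both Th2 libraries called all 4 of these regions. Over the genome, patterns with Th2 made up 2.87% (Th2 only), 2% (Th9 and Th2) and 1.55% (Th2 and Th17) of the regions. Those without it made up 1.31% (Th9 only), 1.7% (Th17 only) and 0.296% (Th9 and Th17). The count is therefore not read as a trait of Itgb1. The intron 3 element is shown, with an ETS and a TATA word in capitals, held by 13.2% and 6.48% of all regions. Its window was 71.5% repeat-masked.
Itgb1 intron 3, Th2 and Th17 (chr8:128709293-128709492): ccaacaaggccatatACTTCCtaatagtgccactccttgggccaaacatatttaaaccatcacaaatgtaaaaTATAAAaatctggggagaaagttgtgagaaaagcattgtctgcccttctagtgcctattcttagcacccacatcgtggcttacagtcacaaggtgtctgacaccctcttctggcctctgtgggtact

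Itgb7 (chr15:102215995-102231944, minus strand), the partner of Itgae and Itga4, is the shortest of the 9 genes at 15.9 kb and had 10 regions. Of these, 4 were shared, 2 of which lay at the promoters of Zfp740 and Rarg. The remaining shared regions were its own promoter and a region over exons 3 and 4 (chr15:102224296-102225579), at 71.7 and 75.1 for Th9, 78.6 and 80.4 for Th2 and 73.7 and 72.4 for Th17. The Th2 values were the highest, and the difference did not pass the test (adjusted p 0.814).

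Itgav (chr2:83724397-83806916, plus strand), the alpha subunit that pairs with Itgb1, Itgb3 and Itgb8, had 15 regions, 9 of them shared, the largest number among the 9 genes. Its only subset region was a narrow peak of Th9 in intron 18 (chr2:83789597-83789838), 65.2 kb into the gene, at 24.1 and 29.4. It was lost in 1 Th9 library when the lists were set to equal length and was absent with a −log10 q cutoff of 5.

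Itgb3 (chr11:104608000-104670476, plus strand), the partner of Itgav in the vitronectin receptor, had 18 regions and 4 shared ones. Th9 and Th2 called a region of intron 1 (chr11:104613617-104614783), 5.62 kb into the gene, at 65.9 and 75.3 for Th9 and 21.8 and 64.8 for Th2. A weak region of intron 2 was called in Th2 only, at 8.96 and 19.5. Its folds of 1.87 and 1.91 were below the lowest fold of Th9 replicate 1. A region over exon 15 and the UTR (chr11:104667144-104668236) was called at 77.3 and 78.1 for Th17 and at 45.1 in Th9 replicate 3. It was named after its values had been seen, as the strongest Th17 peaks of this gene outside the shared regions.

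Itgb8 (chr12:119158022-119238802, minus strand), whose product with the Itgav subunit activates latent TGF-β, had the most regions, 32, and the smallest share of regions common to all libraries, 3 (9.38%). Its window held 26 and 21 peaks in Th17, 16 and 15 for Th2 and 10 and 6 for Th9. Both Th17 libraries had more peaks here than any other library although neither had the longest list. Per 100000 peaks of the list this was 20.5 and 20.9 for Th17, 11.3 and 12.5 for Th2 and 7.03 and 5.93 for Th9. Apart from the promoter, at percentiles from 83 to 96.2, most of the peaks were weak. The median fold over all peaks of the window was 2.01 and 1.97 for Th17, 2.04 and 2.03 for Th2 and 2.46 and 2.21 for Th9. The Th17 and Th2 medians were below 2.11, the lowest fold that Th9 replicate 1 listed, so its count and median are bounded by that limit. Th9 replicate 3, with 6 peaks, listed folds down to 1.83. The part of these limits in the peak counts was not tested.

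Th17 alone called 4 regions of Itgb8, of 5 Th17-only regions in all 9 windows. They lay 18.9 kb into the gene in intron 1 (29.9 and 23.8), 45.6 kb into it in intron 3 (42.6 and 19.6), and 2.83 and 16.4 kb past its end (36.3 and 41.4, and 14.1 and 20.8). The folds of all 4 were between 1.85 and 2.08, below the lowest fold of Th9 replicate 1 of 2.11, and at a fold of at least 2.2 none of the 4 was called. Th9 replicate 3 and both Th2 lists reached lower folds. Folds of separate lists are not on a common scale, and whether the limit of Th9 replicate 1 accounts for its missing calls was not tested. Th2 and Th17 together called 3 regions, at 46.6 and 37.5 for Th2 and 64 and 59.3 for Th17 for the strongest, which lay downstream (chr12:119156299-119157473). In this region and in that of intron 1 (chr12:119210813-119212618; 15.9 and 9.97 for Th2, 36.6 and 52.5 for Th17) both Th17 values were above both Th2 values. In the region over exon 14 and the UTR (49.2 and 29.4 for Th2, 44.2 and 52.1 for Th17) they overlapped. The window of the Th17 region in intron 3 is shown because it held several words, an AP-1 word (held by 9.15% of all regions) and 2 GATA words (held at least once by 7.45%).
Itgb8 intron 3, Th17 (chr12:119192883-119193082): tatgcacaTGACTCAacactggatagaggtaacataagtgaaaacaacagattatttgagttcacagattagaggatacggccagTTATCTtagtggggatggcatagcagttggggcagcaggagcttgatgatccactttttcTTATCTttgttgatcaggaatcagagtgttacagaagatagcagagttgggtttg

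Across the 24 subset regions, most words were found in few windows. An AP-1 word was found in 3 (12.5%, against 9.15% of all regions), a GATA word in 2 (8.33%, against 7.45%) and a STAT word in 1 (4.17%, against 5.48%). RUNX and ETS words were each found in 4 (16.7%, against 16.6% and 13.2%), a GC box in 2 (8.33%, against 6.57%), a TATA box in 3 (12.5%, against 6.48%) and a SMAD box in 0 (0.411% of all regions). On counts of 0 to 4 these shares were close to those of the genome, and no test was made. At least 50% of the window was repeat-masked in 4 of the 24 (16.7%), against 23.1% of the regions of 1 or 2 subsets over the genome. Of these 4, 3 belonged to Itgb8 and 1 to Itgb1. A match describes the letters only, and factor binding was not measured.

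Differences in strength were tested in regions called in all 6 libraries, where no call was missing. The rank of each region within a library was put on a standard normal scale (a score) and fitted with limma over all 50493 such regions. Of these, 7.49% differed among the 3 subsets at an adjusted p under 0.05, and 4 of the 44 integrin regions (9.09%) did, a share near that of the genome. They lay in Itgb3, Itgav (2 regions) and Itga4, and 10 of the 44 (22.7%) had an unadjusted p under 0.05, against 23% of all regions. Th2 was above Th9 in 1 (0.998% of all regions), Th9 above Th17 in 1 (2.73%) and Th2 above Th17 in 3 (4.29%). No integrin region was called with Th17 above another subset, or with Th9 above Th2. The genome shares of those directions are not at hand, so their absence is not read as a result about integrins.

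**Figure D5:**
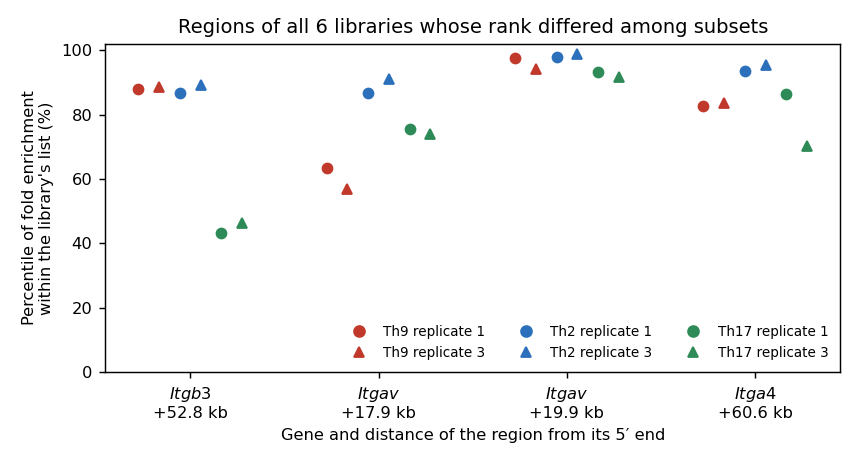
Percentile (vertical axis) in each library of the 4 regions, of 44 common to all libraries, whose rank differed among subsets, by gene and distance from its 5′ end (horizontal axis). At the Itgb3 region the Th17 symbols lie at 43.1 and 46.4 and the others between 86.9 and 89.2.

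The largest of these differences was in Itgb3, 52.8 kb into the gene over exon 13 (chr11:104660767-104662813). Its percentiles were 88.1 and 88.6 for Th9, 86.9 and 89.2 for Th2 and 43.1 and 46.4 for Th17. The Th9 and Th2 libraries lay together and the Th17 libraries far below, with no overlap. The score of Th9 exceeded that of Th17 by 1.69 ± 0.24 (SE, limma, n = 2 libraries per subset, adjusted p 0.0031) and that of Th2 exceeded it by 1.62 ± 0.24 (adjusted p 0.00232). Th9 and Th2 differed by 0.07 ± 0.24 (adjusted p 0.919). The peak was 858 and 1546 bp wide in Th17, 1021 and 1275 bp in Th9 and 1973 and 1334 bp in Th2, so the widths overlapped. Without any 1 of the 6 libraries the adjusted p lay between 0.00246 and 0.0271. The window of 200 bases at its middle held 0 coding bases and a GATA word, in capitals, held by 7.45% of all regions.
Itgb3, stronger in Th9 and Th2 (chr11:104661545-104661744): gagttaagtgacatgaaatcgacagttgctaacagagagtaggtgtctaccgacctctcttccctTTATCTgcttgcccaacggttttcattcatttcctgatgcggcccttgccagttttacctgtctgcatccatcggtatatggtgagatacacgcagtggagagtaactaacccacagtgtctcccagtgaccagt

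Both Itgav regions lay in intron 2, where the annotation also places Gm13684. The first, 17.9 kb into the gene (chr2:83742278-83743297), stood at 63.5 and 56.8 for Th9, 86.8 and 91.2 for Th2 and 75.6 and 73.9 for Th17. The order Th2, Th17, Th9 had no overlap, and the score of Th9 was lower than that of Th2 by a difference of -1.22 ± 0.24 (SE, limma, adjusted p 0.0357). The second, 19.9 kb into the gene (chr2:83744297-83746868), which also overlaps the pseudogene Dnmt3l-ps1, was strong everywhere, at 97.5 and 94.3 for Th9, 98.1 and 98.8 for Th2 and 93.3 and 91.7 for Th17. Th2 was above Th17 by a score of 0.79 ± 0.17 (adjusted p 0.0157). In Itga4, a region of intron 21, 60.6 kb into the gene (chr2:79316069-79316904), stood at 93.6 and 95.6 for Th2, 82.7 and 83.5 for Th9 and 86.5 and 70.4 for Th17. Th2 was highest, and it exceeded Th17 by a score of 0.92 ± 0.22 (adjusted p 0.0303).

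These 3 calls rested on single libraries. Over the genome the share that passed fell too, to 3.04% without Th17 replicate 1 and 2.65% without Th17 replicate 3, against 7.49%. The first Itgav region lost its call without Th9 replicate 1 (adjusted p 0.0666), Th2 replicate 3 (0.148), Th17 replicate 1 (0.0626) or Th17 replicate 3 (0.0667). The second lost it without Th2 replicate 3 (0.137), Th17 replicate 1 (0.154) or Th17 replicate 3 (0.152). The Itga4 region kept it only without Th9 replicate 3 (0.0346) and lost it without Th9 replicate 1 (0.0636), Th2 replicate 1 (0.0535), Th2 replicate 3 (0.234), Th17 replicate 1 (0.0513) or Th17 replicate 3 (0.12). On the untransformed percentile none of the 4 passed, with adjusted p from 0.0501 for Itgb3 to 0.275 for Itga4, and only 206 regions of the genome did. With a −log10 q cutoff of 5, the second Itgav region kept its call (limma F, adjusted p 0.0404) and the Itga4 region lost it (0.0558). The Itgb3 region and the first Itgav region were not called in every library at that cutoff and were not fitted.

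The genes that act with these integrins were followed at their promoters, where 58.7% of all protein-coding genes were called in every library. All 15 genes for inside-out activation and adaptors, such as Tln1 (talin) and Fermt3 (kindlin-3), which bind beta subunit tails, and Rap1a and Rap1b, the GTPases upstream of them, had a promoter peak in all 6 libraries, and none of their 15 promoters differed among subsets (limma F). Of the 17 other integrin subunits, 9 were called in all libraries, 5 (Itga2b, Itga11, Itgad, Itgam and Itgb6) in none, and none of the 9 differed. Itgax, the CD11c subunit of myeloid cells, was called in both Th2 libraries only, at 55.1 and 71.4. Of the 8 ligands, 6 were called in every library. Vcam1, the ligand of VLA-4, stood at 94.7 and 83.8 for Th9, 57.9 and 74.9 for Th17 and 45.8 and 31.1 for Th2. The Th9 values lay above all others, and Th9 exceeded Th2 by a score of 2.09 (limma, adjusted p 0.0176; F, adjusted p 0.00724). It was the only promoter of the 4 lists that passed the test, 1 of 39 fitted (2.56%), with the 8 of the integrins of T cells included. The share was 7.49% over all regions called in every library, promoters or not. A share for promoters alone was not computed.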

How the data were processed

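ATAC-seq peak lists of 6 libraries were analysed, 2 each from Th9, Th2 and Th17 cells. Per the labels and the methods, the authors trimmed reads with Trim Galore 0.4.3, aligned them to mm10 with Bowtie2, removed duplicates with Picard and called broad peaks with MACS2 2.1.0 in each library separately, without an input control. A shift for the Tn5 offset was not stated. The deposited fold enrichment, a linear ratio to the genome background, was converted to a percentile within its list. The deposited −log10 p and −log10 q served for alternatives, and the deposited integer score was not used. The lists hold no read counts, so depth was not known from them.

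Overlapping or touching peaks of the 6 lists were merged into regions (Python 3.11.15, pandas 2.3.3, numpy 2.4.6). A library called a region at an overlap of at least 1 bp. Genes and starts came from GENCODE M21 on GRCm38, the assembly of mm10. Trac was not matched. The value of 1 marker of the B cell list is not reported here. Where a library had several peaks in a region, the strongest was used. Strength was compared with limma 3.58.1 (R 4.3.3) on normal scores of the rank within a library, over the 50493 regions called in every library, with Benjamini-Hochberg adjustment over all of them and a threshold of 0.05. The fit had 3 residual degrees of freedom and 9.095 from the prior, and shared 1 estimate of the spread among the subsets. The region joining and the fit were tested on simulated data. Figures were drawn with matplotlib 3.10.9.

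All 9 members were named, each with its promoter, its regions of 1 or 2 subsets and its shared regions that passed the test. Features outside this rule are marked in the text. The members, lists and tests were chosen with earlier results of these data known. Sequences were read from GRCm38.p6 and from RefSeq promoters, over 236016 regions for the 200-base windows. The alternatives were a fold of at least 4, a −log10 q of at least 5, lists of equal length, 50% of a region covered, gene bodies alone or with 50 kb, 1 library of a subset taken as enough, wider promoters (2000 bp each way), other scales of the fit, a replicate block and each library left out. A fold of at least 2.2 was added after the data had been seen.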

Additional observations from a re-analysis of the deposited data

How the results depend on the processing

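Weak peaks carried most subset patterns. Of the 24 subset regions, 17 kept their pattern with lists of equal length, 11 at a fold of at least 2.2, 3 at a −log10 q of at least 5 and 0 at a fold of at least 4, where 19 were not called at all. The folds of 6, 4 of them in Itgb8, were below the lowest fold of Th9 replicate 1, which lacks them. Depth is unknown, the lists differ in length, and 2 libraries per subset leave 3 residual degrees of freedom, so a difference that did not pass may have been out of reach.

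The count of Th9-only regions was 2, and it became 4 at a fold of at least 4, 0 at a −log10 q of at least 5, 1 at a fold of at least 2.2 and 10 with a call in either library. Leaving out 1 library gave 2 to 7 (7 without Th9 replicate 1, 5 without Th9 replicate 3). The Th2-only count of 5 became 2 at a fold of at least 4, 2 at a −log10 q of at least 5, 3 with lists of equal length, 12 with 50% of the region covered, 1 in gene bodies alone and 21 with a call in either library. Leaving out 1 library gave 6 to 16 (16 without Th2 replicate 1, 10 without Th2 replicate 3, 11 without Th9 replicate 3). The Th17-only count of 5 became 0 at a fold of at least 4, 3 at a −log10 q of at least 5, 2 at a fold of at least 2.2, 3 in gene bodies alone, 9 with 50 kb on either side and 14 with a call in either library. Leaving out 1 library gave 5 to 11 (11 without Th17 replicate 3, 8 without Th17 replicate 1 or Th2 replicate 3). Without 1 library of a subset its pattern needs a call in the other library alone, which by construction raises these counts.

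Promoters called in every library numbered 8, and 4 at a fold of at least 4. Leaving out 1 library gave 8 in each case. The 4 regions that differed in strength became 0 on the untransformed percentile (206 over the genome), 1 at a −log10 q of at least 5 and 12 when a library without a call was set to the lowest fold of its list, where 6.77% of all regions passed. Leaving out 1 library gave 1 to 6. The count was 2 without Th9 replicate 1 (6.14% of all regions passed) and 2 without Th2 replicate 3 (5.47%). It was 1 without Th17 replicate 1 (3.04%) and 2 without Th17 replicate 3 (2.65%). With all libraries 7.49% of all regions passed, so the share over the genome fell as well. The causes were not tested. With a replicate block, 6 regions were called among the members and 4704 over the genome, against 3782. The labels do not say whether same-numbered libraries share an origin. Their deviations from the subset mean correlated at 0.121, -0.0127 and -0.0272 over the regions, which cannot decide whether the samples are paired.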

Other observations

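Beyond the windows of 20 kb, the 30 kb that follow on either side held further regions of interest. Upstream of Itga4, the alpha subunit of VLA-4, both Th17 libraries and no other called 2 regions, 23.9 kb before the gene (chr2:79231006-79231489) at percentiles of 75.5 and 79.7, and 27.4 kb before it (chr2:79227600-79228057) at 61.9 and 52.1. Both were stronger than the 5 Th17-only regions within the windows apart from that of Itgae, whose values of 62.7 and 57.6 overlapped with the second. Itgb8 had 2 more Th17-only regions there, at 27.9 and 18.9 and at 11.5 and 4.4, and 1 region of Th2 only, at 74.8 and 70.8. Itgb7, which had no subset region in its window, had 1 of Th9 and Th2 43 kb past its end, at 84.8 and 66 for Th9 and 69.1 and 70.2 for Th2. Over the genome these patterns made up 1.7% (Th17 only), 2.87% (Th2 only) and 2% (Th9 and Th2) of the regions. Regions of mixed calls in the outer flanks were not counted, so the shares there are not known and no excess is claimed.

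Of the 26 regions of these outer flanks that were called in all libraries, 3 (11.5%) differed among the subsets by limma F, against 7.49% over the genome. Of these, 2 flanked Itgb1. The region 41.2 kb upstream (chr8:128643000-128644411) stood at 89.7 and 84.8 for Th9, 75.7 and 60.5 for Th2 and 43.5 and 35.9 for Th17 (adjusted p 0.00561), so Th9 was highest and Th17 lowest with no overlap. The region 30.7 kb downstream (chr8:128763890-128765103) stood at 95.5 and 97.9 for Th2, 77 and 77.5 for Th9 and 81.9 and 75.7 for Th17 (adjusted p 0.00435), so Th2 was highest. The third lay 35 kb upstream of Itgal (chr7:127260129-127261287; adjusted p 0.0341). Whether these regions act on the integrin genes or on their neighbours was not tested.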
